A study of Mus musculus with 27 samples.

Results

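The Müller glia genes described here were 10 genes with known roles in or expression by Müller glia: Glul, Slc1a3, Aqp4, Kcnj10, Apoe, Sox9, Clu, Dkk3, Vim and Car14. Each was the entry of that symbol in the deposited expression table, which lists 38168 features in all. Car14 had 2 entries, and the entry with the higher mean level was used. RNA-seq was performed on whole retina of wild type C57BL/6J mice in 27 libraries: 3 at embryonic day 14 (E14), 3 at E17, 4 at postnatal day 1 (P1), 3 at P6, 4 at P15, 4 at P28 and 6 at P60. No mouse was treated or carried a mutation, and the retinas were taken in the light phase of a 12 h light and dark cycle. Libraries came from pooled retinas, stated as 3 retinas per library in the labels and as larger pools in the methods, where 2 of the P60 libraries were pools and 4 came from individual mice. Which of the P60 libraries were the pools is not stated. Sexes were mixed up to P1 and only males were used later, so that sex and age cannot be told apart across the step from P1 to P6 or between embryonic and mature retina.

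Müller glia are the main glial cells of the retina and span its whole thickness. They arise late from the same multipotent progenitors as rods and bipolar cells, and they share with those progenitors a set of transcription factors and intermediate filament proteins. In mature retina they take up glutamate and convert it to glutamine, carry potassium and water to the vitreous and to vessels through their endfeet, buffer pH, supply lipids and take part in the recycling of visual pigment. In bulk RNA from whole retina, fewer cells of a type and less RNA per cell cannot be told apart, and a level is a share of the whole RNA, so that it also depends on the RNA of the other cells.

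Levels are given in cpm, in which the read count of a gene is scaled to the total of its library. Depth ran from 7076646 to 11330762 reads per library, so that 1 read was worth 0.0882 to 0.141 cpm and a count of 0 allowed up to 0.265 to 0.424 cpm (3 reads, counting error only). Rod markers, summed over 5 genes, were at 16.1 to 26.8 cpm in the libraries of embryonic retina and at 16770 to 29463 cpm in those of P15, P28 and P60. All 10 genes passed the filter of at least 1 cpm in at least 3 libraries, as did 31760 features in all, and were tested by limma on log2(cpm + 1). A fold change on this scale understates the change of a gene at low level. Adjusted p-values are those of Benjamini and Hochberg over all features tested, two-sided, and a gene was called at an adjusted p under 0.05.

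All 10 genes differed among the ages (limma F test, adjusted p from 2.9e-28 for Aqp4 to 1.0e-12 for Car14), as did 83.0% of all features tested. They did not move together. Between mature retina (the mean of P15, P28 and P60) and embryonic retina (the mean of E14 and E17), 6 genes were higher (Glul, Aqp4, Kcnj10, Apoe, Clu and Car14) and 4 were lower (Slc1a3, Sox9, Dkk3 and Vim). Of all features, 35.0% were called higher and 40.4% lower in the same comparison. The median log2 fold change of the 10 genes was 1.71, against -0.06 over all features. Summed over the 10 genes, the level stood at 1541 to 1546 cpm at E14, fell to a low of 792.0 to 826.7 cpm at P6 and was 1521 to 1785 cpm at P60. Dkk3 and Vim made up most of the sum at E14 (means of 564 and 534 cpm), and Glul and Dkk3 at P60 (662 and 369 cpm). From P1 to P6, 4 of the 10 genes were higher and 4 lower, against 18.0% and 20.4% of all features.

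**Figure D1:**
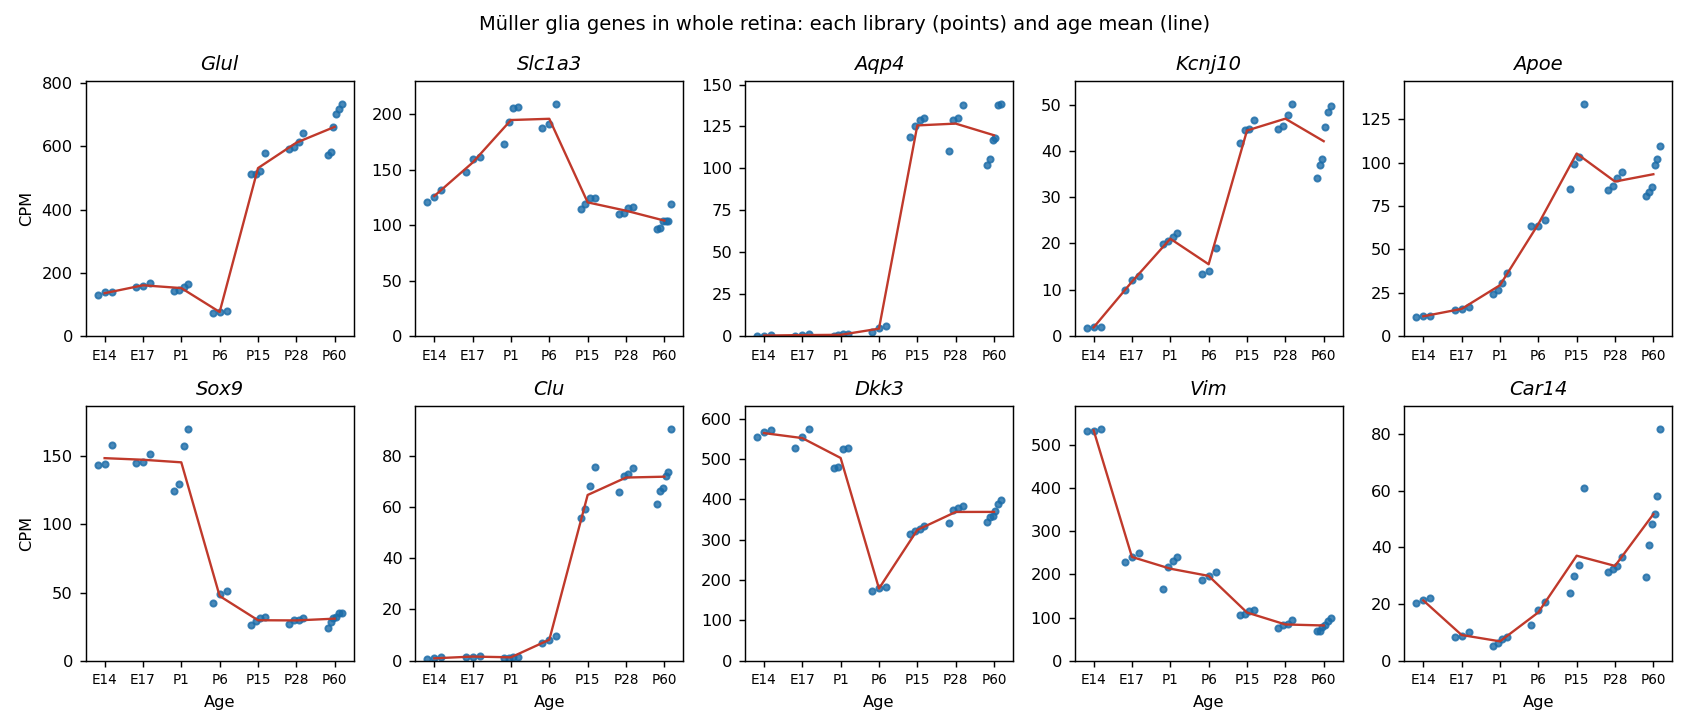
Level of each of the 10 Müller glia genes (vertical axis, cpm on a linear scale from 0) in each of the 27 libraries (points, spread sideways by rank within an age), with the mean of each age as a line. Aqp4 and Clu lay near 0 up to P1, Glul and Dkk3 had their lowest values at P6, Sox9 was high up to P1, and Vim was highest at E14.

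Levels of the 10 genes were compared with each other per kilobase of annotated exon. On that scale Vim and Dkk3 led the list at E14, with 244 ± 1.27 and 168 ± 2.83 cpm per kb (SD, n = 3). At P60 Glul led with 237 ± 24.9 cpm per kb, followed by Dkk3 with 110 ± 6.04 and Apoe with 50.7 ± 6.36 (SD, n = 6). Aqp4 was the lowest of the 10 from E14 to P6, at 0.0514 ± 0.0582 cpm per kb at E14. From P15 on Sox9 had the lowest mean. At P60 Sox9 was at 7.46 ± 1.03 cpm per kb, and its libraries overlapped with those of Kcnj10 (7.79 ± 1.20).

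Glul and Slc1a3 act in the same metabolic route, but their courses differed after P1. Glul fell to a low at P6 and then rose to P15, while Slc1a3 held its P1 level at P6 and then fell. Slc1a3 encodes the glial glutamate transporter GLAST and Glul encodes glutamine synthetase, which turns glutamate into glutamine. Glul was at 139.5, 137.9 and 129.1 cpm in the E14 libraries, 168.5, 157.6 and 155.6 at E17, and 163.2, 141.8, 147.1 and 154.7 at P1. It was at 77.3, 73.3 and 77.8 cpm at P6, then 521.8, 512.9, 512.6 and 577.4 at P15, and 641.7, 614.2, 597.8 and 592.7 at P28. At P60 the lowest library was at 573.4 cpm, the median was 681.4 and the highest 733.2. The P6 libraries thus lay below all others and every library from P15 on lay above all earlier ones, while P28 and P60 overlapped. Glul fell by 0.98 on the log2 scale from P1 to P6 (SE 0.08, adjusted p = 3.1e-12, limma) and then rose 6.98-fold from P6 to P15 (log2 fold change 2.79, SE 0.08, adjusted p = 9.0e-23). In mature retina it was 4.06-fold higher than in embryonic retina (log2 fold change 2.01, SE 0.05, adjusted p = 2.2e-26). Within P60, the libraries of replicates 1 and 2 (581.2 and 573.4 cpm) were below the other 4, which ran from 662.1 to 733.2 cpm.

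Glul lies on chromosome 1 at 153899944-153909723 (GRCm38, forward strand). Its exons share 116 bases with those of Teddm2 on the opposite strand. Whether counting used the strand is not given in the sources used here, so reads in the shared bases cannot be told apart. Teddm2 was listed at 6.28 ± 0.913 cpm at P6 (SD, n = 3) and 40.1 ± 11.8 at P15 (SD, n = 4), a difference in the same direction as that of Glul. The promoter of Glul is shown because Glul had the largest difference between the step to P6 and the step after it of the 10 genes. The RefSeq sequence of GRCm38.p6 from 250 bases before to 50 bases after the annotated start (chr1:153899679-153899978, forward strand) reads:

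Glul: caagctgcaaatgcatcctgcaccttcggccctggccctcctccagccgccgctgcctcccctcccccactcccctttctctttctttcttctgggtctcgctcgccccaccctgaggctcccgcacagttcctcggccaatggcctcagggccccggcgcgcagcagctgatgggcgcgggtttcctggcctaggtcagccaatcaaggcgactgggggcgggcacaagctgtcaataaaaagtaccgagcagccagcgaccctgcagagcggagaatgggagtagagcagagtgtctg

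It held none of the 4 motifs searched on both strands, so it has no capitals. These were a SOX motif (ACAAAG or ACAATG, in 28.6% of the 32851 promoter windows of this length), an NFI half-site (TTGGCA, 14.1%), an RBPJ motif (GTGGGAA, 6.4%) and a TATA box (TATAAA, 13.6%). Its GC content was 64.3% and it held 17 CpG, against medians of 52.7% and 7 over all windows.

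Slc1a3 was at 125.7, 120.9 and 132.1 cpm at E14, 161.7, 159.3 and 148.3 at E17, and 206.9, 173.3, 205.9 and 193.1 at P1. It stayed at 191.3, 209.1 and 187.4 cpm at P6, where the libraries overlapped with those at P1. It was then at 119.0, 115.0, 124.1 and 124.1 cpm at P15, and 116.3, 109.9, 115.3 and 110.6 at P28. The P60 libraries ran from 96.6 to 118.9 cpm, with a median of 103.8. Slc1a3 was therefore highest at P1 and P6 and came back to the E14 level by P15, with E14 overlapping with P15, and P15, P28 and P60 overlapping with each other. It rose from E14 to E17 (log2 fold change 0.31, SE 0.08, adjusted p = 0.0089) and again from E17 to P1 (0.31, SE 0.08, adjusted p = 0.0053), and fell by 0.70 from P6 to P15 (SE 0.08, adjusted p = 9.0e-09). The rise from E14 to E17 was not called under median-of-ratios scaling (adjusted p = 0.11), by edgeR (0.052) or without E14 replicate 2 (0.060) or E17 replicate 1 (0.051), and that from E17 to P1 was not called under median-of-ratios scaling or without E17 replicate 3 (0.053 each). In mature retina Slc1a3 was 1.26-fold lower than in embryonic retina (log2 fold change -0.32, SE 0.05, adjusted p = 5.4e-07).

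Slc1a3 lies on chromosome 15 at 8634124-8710764 (reverse strand). Its promoter is given for contrast with Glul (chr15:8710758-8711057, reverse strand, written 5′ to 3′ along the gene). Capitals mark a TATA box motif on the opposite strand, 161 bases before the start:

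Slc1a3: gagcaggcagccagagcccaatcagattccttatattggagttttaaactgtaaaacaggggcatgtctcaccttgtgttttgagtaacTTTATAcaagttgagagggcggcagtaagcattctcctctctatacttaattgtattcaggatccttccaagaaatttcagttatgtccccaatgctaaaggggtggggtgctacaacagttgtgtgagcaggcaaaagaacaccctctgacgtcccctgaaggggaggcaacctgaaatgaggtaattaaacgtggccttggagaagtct

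Its GC content was 45.3% and it held 3 CpG, both below the medians over all windows. A motif match describes letters in the window and not a site of binding.

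Aqp4 and Kcnj10 encode the water channel and the inwardly rectifying potassium channel Kir4.1, which are placed together in the endfeet of Müller glia. The onset of Kcnj10 was early and stepwise, and that of Aqp4 was late and steep. Aqp4 had 7, 1 and 1 reads in the E14 libraries, 4, 11 and 3 at E17, and 5, 2, 10 and 8 at P1, which is 0.105 to 1.13 cpm. At P6 it was at 5.79, 2.49 and 4.96 cpm, above every earlier library. It was at 129.96, 125.5, 128.6 and 118.5 cpm at P15 and at 137.9, 128.9, 110.3 and 129.9 at P28. At P60 the lowest library was at 102.2 cpm, the median was 117.4 and the highest 138.3, and the libraries at P15, P28 and P60 overlapped. From P6 to P15 Aqp4 rose 28.5-fold (log2 fold change 4.60, SE 0.20, adjusted p = 3.9e-18), after a rise of 1.61 on the log2 scale from P1 to P6 (SE 0.20, adjusted p = 4.5e-08). The ratio of mature to embryonic means was 286, with a counting interval of 197 to 434 from the 27 reads of the 6 embryonic libraries (95%, exact Poisson, counting error of those reads only). Within P60, replicates 1 and 2, which were lowest for Glul, were highest for Aqp4 (137.7 and 138.3 cpm against 102.2 to 118.0 in the other 4).

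Kcnj10 was at 1.701, 2.004 and 1.895 cpm at E14, 10.02, 12.18 and 13.05 at E17, and 21.3, 19.9, 22.3 and 20.6 at P1. At P6 it was at 14.1, 19.0 and 13.4 cpm, below all P1 libraries. It was at 44.8, 46.7, 44.4 and 41.6 cpm at P15, and at 50.1, 44.7, 47.8 and 45.4 at P28. The P60 libraries ran from 34.1 to 49.7 cpm, with a median of 41.7. No libraries of different ages overlapped up to P6, and those of P15, P28 and P60 did. Kcnj10 rose 6.29-fold from E14 to E17 (log2 fold change 2.15, SE 0.14, adjusted p = 2.3e-13) and 1.79-fold from E17 to P1 (0.80, SE 0.13, adjusted p = 4.9e-05). It then fell by 0.43 from P1 to P6 (SE 0.13, adjusted p = 0.0080) and rose 2.86-fold from P6 to P15 (log2 fold change 1.47, SE 0.13, adjusted p = 1.1e-10). Its mature level was 6.54-fold that of embryonic retina (log2 fold change 2.91, SE 0.08, adjusted p = 1.4e-24). The fall to P6 was not called without P6 replicate 1 (adjusted p = 0.051) or P6 replicate 3 (0.071).

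Kcnj10 lies on chromosome 1 at 172341210-172374085 (forward strand). Its promoter is shown beside that of Glul because both genes fell to P6 and rose after it (chr1:172340960-172341259, forward strand). Capitals mark a SOX motif that begins at the annotated start:

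Kcnj10: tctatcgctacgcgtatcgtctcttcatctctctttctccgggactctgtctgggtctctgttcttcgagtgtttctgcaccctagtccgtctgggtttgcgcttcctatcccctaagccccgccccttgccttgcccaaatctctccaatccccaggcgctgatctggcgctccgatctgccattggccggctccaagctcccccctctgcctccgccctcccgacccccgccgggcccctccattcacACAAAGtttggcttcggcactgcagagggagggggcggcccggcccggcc

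Its GC content was 63.7% and it held 21 CpG. The SOX motif was found in 28.6% of all windows.

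Car14 encodes a membrane-bound carbonic anhydrase, which is known in Müller glia and in the retinal pigment epithelium (RPE) and acts on extracellular pH. It had a low at P1 and the widest spread between libraries of the 10 genes at P15 and P60. It was at 21.5, 20.4 and 22.0 cpm at E14, 8.69, 10.2 and 8.28 at E17, and 8.22, 5.04, 7.80 and 6.27 at P1. It was at 20.6, 12.8 and 17.8 cpm at P6, 23.8, 29.8, 33.8 and 60.9 at P15, and 33.6, 36.6, 32.5 and 31.2 at P28. At P60 the lowest library was at 29.5 cpm, the median was 50.1 and the highest 81.9. All libraries from P15 on lay above all earlier ones, while P15, P28 and P60 overlapped. Car14 fell by 1.15 on the log2 scale from E14 to E17 (SE 0.26, adjusted p = 0.0020), rose by 1.20 from P1 to P6 (SE 0.24, adjusted p = 0.00014) and rose by 1.01 from P6 to P15 (SE 0.24, adjusted p = 0.0013). In mature retina it was 2.69-fold higher than in embryonic retina (log2 fold change 1.40, SE 0.15, adjusted p = 1.2e-09).

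The summed level of RPE markers was higher at P6 and P15 than at P1, as was Car14, but the other ages differed. Summed over 8 genes, of which all were listed, they did not exceed 12.0 cpm in any library up to P1. They ranged over 22.5 to 31.5 cpm in the P6 libraries and peaked at P15 (43.2 to 72.2 cpm), before ranges of 29.9 to 42.0 cpm at P28 and 16.8 to 61.0 cpm at P60. In mature against embryonic retina, 5 of the 7 RPE markers tested were higher (Rpe65, Lrat, Ttr, Tyr and Rdh5), and Best1 and Pmel were not called. Over all features, 35.0% were higher in that comparison and 40.4% lower. From E14 to E17, when Car14 fell, 0 of the 7 were called, against 7.56% of all features higher and 3.02% lower. From P15 to P60 the mean RPE sum went from 57.3 to 34.3 cpm while the mean of Car14 went from 37.1 to 51.7 cpm. The part of the RPE in the level of Car14 was not tested. In single libraries, the highest Car14 value at P60 (replicate 5, 81.9 cpm) came with an RPE sum of 38.2 cpm, and the highest RPE sum at P60 (replicate 2, 61.0 cpm) came with 40.8 cpm of Car14. Car14 lies on chromosome 3 at 95897768-95904691 (reverse strand). The exons of Car14 share 445 bases with those of Aph1a on the opposite strand, and Aph1a stood at means of 6.10 to 8.38 cpm at all ages. The second entry of Car14 was at a mean of 3.72 cpm at P1 and 21.2 at P60, and it too was lowest at P1 and highest at P60.

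Apoe, Clu and Dkk3 encode secreted proteins. Apolipoprotein E and clusterin carry lipids, and Dkk3 is a member of the Dickkopf family. Apoe lies on chromosome 7 at 19696109-19699188 and Dkk3 on the same chromosome at 112116017-112159057 (both reverse strand), and Clu on chromosome 14 at 65968483-65981547 (forward strand). Apoe rose at every step from E14 to P15, Clu stayed low up to P1, and Dkk3 started high and passed through a low at P6. Apoe was at 11.7, 11.3 and 11.2 cpm at E14, 15.1, 15.4 and 16.5 at E17, and 26.4, 36.3, 30.5 and 24.0 at P1. It was at 66.7, 63.2 and 63.7 cpm at P6, 85.0, 99.2, 103.1 and 133.6 at P15, and 86.3, 84.0, 94.7 and 91.1 at P28. The P60 libraries ran from 80.7 to 109.5 cpm, with a median of 92.0. No libraries of different ages overlapped up to P6, and all later libraries lay above those of P6. Apoe rose by 0.85 on the log2 scale from E17 to P1 (SE 0.13, adjusted p = 1.3e-05), by 1.13 from P1 to P6 (SE 0.13, adjusted p = 8.8e-09) and by 0.68 from P6 to P15 (SE 0.13, adjusted p = 7.7e-05). The smaller rise from E14 to E17 (0.43, SE 0.13, adjusted p = 0.037) was not called under median-of-ratios scaling (0.11), by edgeR (0.10) or without any of the 6 libraries compared (0.070 to 0.14). In mature retina Apoe was 7.09-fold higher than in embryonic retina (log2 fold change 2.74, SE 0.08, adjusted p = 3.9e-24).

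Apoe is also made by microglia. Summed over 8 genes, all of them listed, microglia markers were at 14.4 to 20.9 cpm in embryonic libraries, 27.4 to 27.6 at P6 and 12.9 to 24.1 in the mature ones. C1qa was at means of 0.466 to 1.38 cpm over the 7 ages. In mature against embryonic retina, 1 of the 6 microglia markers tested was higher and 0 were lower, against 35.0% and 40.4% of all features. The marker called was Csf1r (log2 fold change 0.31, SE 0.13, adjusted p = 0.029, limma). From P1 to P6, 4 of the 6 were higher (C1qa, C1qb, C1qc and Cx3cr1) and 0 lower, against 18.0% and 20.4% of all features. The part of microglia in the level of Apoe was not tested.

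Clu had 13, 9 and 5 reads at E14, 15, 15 and 19 at E17, and 12, 8, 11 and 13 at P1, which is 0.526 to 1.97 cpm. It was at 9.61, 6.81 and 8.14 cpm at P6, 55.8, 59.4, 68.1 and 75.5 at P15, and 71.9, 73.0, 65.9 and 75.2 at P28. At P60 the lowest library was at 61.0 cpm, the median was 69.9 and the highest 90.5. The libraries of E14, E17 and P1 overlapped, those of P6 lay apart from all others, and those of P15, P28 and P60 overlapped. Clu rose 6.22-fold from P1 to P6 (log2 fold change 1.98, SE 0.15, adjusted p = 2.2e-12) and 7.90-fold from P6 to P15 (2.84, SE 0.15, adjusted p = 1.3e-15). Of the 10 genes, Clu and Aqp4 had the largest differences between mature and embryonic retina, at 4.98 (SE 0.10) and 6.47 (SE 0.13) on the log2 scale (adjusted p = 6.3e-29 and 4.8e-29).

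Dkk3 was at 567.5, 571.9 and 553.6 cpm at E14, 554.6, 526.3 and 574.8 at E17, and 480.1, 528.4, 478.0 and 523.9 at P1. It was at 181.1, 183.2 and 172.5 cpm at P6, below every other library. It was at 322.4, 313.8, 326.5 and 334.0 cpm at P15, and 377.6, 383.1, 372.9 and 341.4 at P28. The P60 libraries ran from 344.2 to 397.2 cpm, with a median of 364.5. The 3 early ages overlapped in sequence, E14 with E17 and E17 with P1, and P28 overlapped with P60. Dkk3 fell 2.81-fold from P1 to P6 (log2 fold change -1.48, SE 0.06, adjusted p = 3.4e-19) and rose 1.81-fold from P6 to P15 (0.85, SE 0.06, adjusted p = 8.8e-13). It was 1.58-fold lower in mature than in embryonic retina (log2 fold change -0.66, SE 0.04, adjusted p = 3.8e-16).

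Sox9 and Vim are active in progenitors as well as in Müller glia, and both were higher in embryonic than in mature retina. Sox9 encodes a transcription factor needed for Müller glia to form, and Vim encodes the intermediate filament protein vimentin. Sox9 lies on chromosome 11 at 112782224-112787760 and Vim on chromosome 2 at 13573927-13582826 (both forward strand). Sox9 was at 144.1, 143.4 and 158.5 cpm at E14, 145.7, 144.8 and 152.0 at E17, and 157.7, 170.2, 129.8 and 124.7 at P1. It was at 42.2, 50.9 and 49.2 cpm at P6, 26.5, 29.1, 31.2 and 32.0 at P15, and 30.1, 31.5, 29.8 and 26.9 at P28. At P60 the lowest library was at 24.0 cpm, the median was 31.4 and the highest 35.1. The libraries up to P1 overlapped and lay above all later ones, P6 lay between, and the mature ages overlapped. Sox9 fell 3.07-fold from P1 to P6 (log2 fold change -1.59, SE 0.12, adjusted p = 5.0e-13) and 1.60-fold from P6 to P15 (-0.66, SE 0.12, adjusted p = 3.1e-05).

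Vim was at 532.3, 532.7 and 537.3 cpm at E14 and at 241.1, 229.6 and 250.6 at E17. It was at 239.5, 165.4, 230.8 and 217.3 cpm at P1, where replicate 2 lay below the P6 libraries. It was at 186.5, 205.9 and 197.2 cpm at P6, 105.5, 109.0, 115.0 and 117.1 at P15, and 94.1, 81.6, 84.2 and 76.2 at P28. The P60 libraries ran from 68.9 to 98.0 cpm, with a median of 80.9. The E14 libraries stood apart, E17, P1 and P6 overlapped in sequence, and P28 overlapped with P60. Vim fell 2.22-fold from E14 to E17 (log2 fold change -1.15, SE 0.12, adjusted p = 4.3e-09), when Sox9 differed by -0.01 on the log2 scale (95% interval -0.26 to 0.24). It fell 1.76-fold from P6 to P15 (log2 fold change -0.81, SE 0.11, adjusted p = 4.0e-07). Mature levels were 4.19-fold lower than embryonic ones for Vim (log2 fold change -1.96, SE 0.07, adjusted p = 3.7e-22) and 4.93-fold lower for Sox9 (-2.27, SE 0.07, adjusted p = 4.7e-23).

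The promoter of Vim is shown as that of a gene that fell with age (chr2:13574061-13574360, forward strand). Capitals mark a TATA box motif on the gene's own strand, 32 bases before the start:

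Vim: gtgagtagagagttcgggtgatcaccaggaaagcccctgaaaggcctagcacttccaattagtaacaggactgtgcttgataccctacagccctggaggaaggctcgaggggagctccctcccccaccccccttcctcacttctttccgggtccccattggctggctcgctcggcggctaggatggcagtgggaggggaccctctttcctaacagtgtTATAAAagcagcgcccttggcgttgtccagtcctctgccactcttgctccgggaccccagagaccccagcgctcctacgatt

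Of the 10 genes, 6 had a promoter entry in the RefSeq table: Glul, Slc1a3, Kcnj10, Apoe with 3 entries, Vim and Car14. The motif of the TATA box was also found in the second entry of Apoe, the SOX motif in the first entry of Apoe, and the NFI half-site in the third. None of the 4 motifs was found in the window of Car14, as in that of Glul.

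Progenitor markers were high in early retina, as were Sox9, Dkk3 and Vim. Summed over 8 genes, all of them listed, they were at 5013 to 6375 cpm in the libraries from E14 to P1, at 566.4 to 635.3 at P6 and at 133.6 to 206.0 from P15 on. Their steepest step, from P1 to P6, was also the step at which Glul, Sox9 and Dkk3 fell, with Kcnj10 among the genes lower at P6. Vim, however, was not called at that step, and Dkk3 rose from P6 to P15 while the summed markers fell further. The part of progenitors in those falls was not tested. Astrocyte markers, summed over 4 genes, were at 6.80 to 36.0 cpm up to P1, 48.6 to 57.8 at P6 and 16.5 to 24.9 later. Pdgfra made up most of that sum at P6 (a mean of 41.9 cpm), and the 4 genes did not move together. From P1 to P6, 1 was higher (Pdgfra), 1 was lower (Pax2) and 2 were not called, against 18.0% of all features higher and 20.4% lower. Vessel markers, summed over 7 genes, were at 166 to 499 cpm up to P1, 323 to 340 at P6 and 164 to 276 in mature libraries, a sum of which Kdr made up most (a mean of 457 cpm at P1). Of the 7 vessel markers, 5 were higher in mature than in embryonic retina (Pecam1, Cdh5, Tek, Pdgfrb and Rgs5), and Cldn5 and Kdr were lower. Over all features, 35.0% were higher in that comparison and 40.4% lower. Rgs5 was at means of 3.37 cpm at P1, 60.8 at P6 and 87.4 at P15. The part of vessels and astrocytes in the levels of the 10 genes was not tested.

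**Figure D2:**
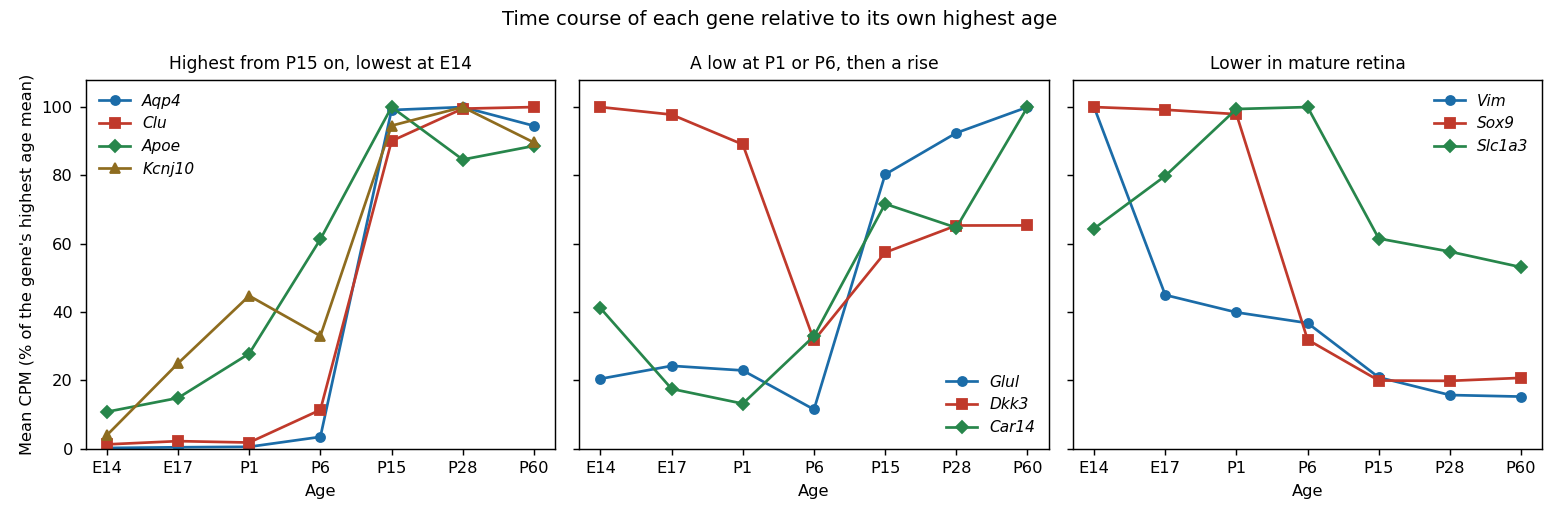
Mean level of each Müller glia gene at each age as a percentage of its own highest age mean (vertical axis, 0 to 100%), in 3 panels by shape. At P6 Aqp4 stood at 3.48%, Clu at 11.4%, Kcnj10 at 33.0% and Apoe at 61.3% of their highest means. Slc1a3 had its highest mean at P6, with P1 at 99.4% of it.

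Set against its own highest age, each gene reached the mature level at a different pace. At P1 Kcnj10 stood at 44.8% of its highest mean, Apoe at 27.9%, Clu at 1.83% and Aqp4 at 0.58%. By P15 these were at 94.6%, 100%, 90.1% and 99.1%. The time course plot by percentage shows Glul and Dkk3 with a low at P6, of 11.5% and 31.7% of their highest means. Over the 7 age means of log2(cpm + 1), the closest pair was Aqp4 and Clu (Pearson r = 0.995) and the most opposed pair was Sox9 and Clu (r = -0.972). Glul and Dkk3 shared the low at P6 but had r = 0.08 over the 7 ages. These r values describe 7 points that share libraries and depth, and carry no test.

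The steps between neighboring ages placed these changes in time. From E14 to E17, 3 of the 10 genes were higher (Slc1a3, Kcnj10 and Apoe) and 2 lower (Vim and Car14), against 7.56% and 3.02% of all features; by edgeR and under median-of-ratios scaling 3 were called, and 3 without E14 replicate 2 or E17 replicate 1. From E17 to P1, the same 3 genes were higher and 0 were lower, against 5.77% and 3.43% of all features. At an unadjusted p under 0.05 the step from E17 to P1 had 4 genes, Dkk3 being the other, and edgeR called 3. From P1 to P6, 4 genes were higher (Aqp4, Apoe, Clu and Car14) and 4 lower (Glul, Kcnj10, Sox9 and Dkk3), against 18.0% and 20.4%. From P6 to P15, 7 genes were higher (Glul, Aqp4, Kcnj10, Apoe, Clu, Dkk3 and Car14) and 3 lower (Slc1a3, Sox9 and Vim), against 14.4% and 19.0%. This was the only step at which all 10 genes were called, and edgeR also called all 10 there.

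**Figure D3:**
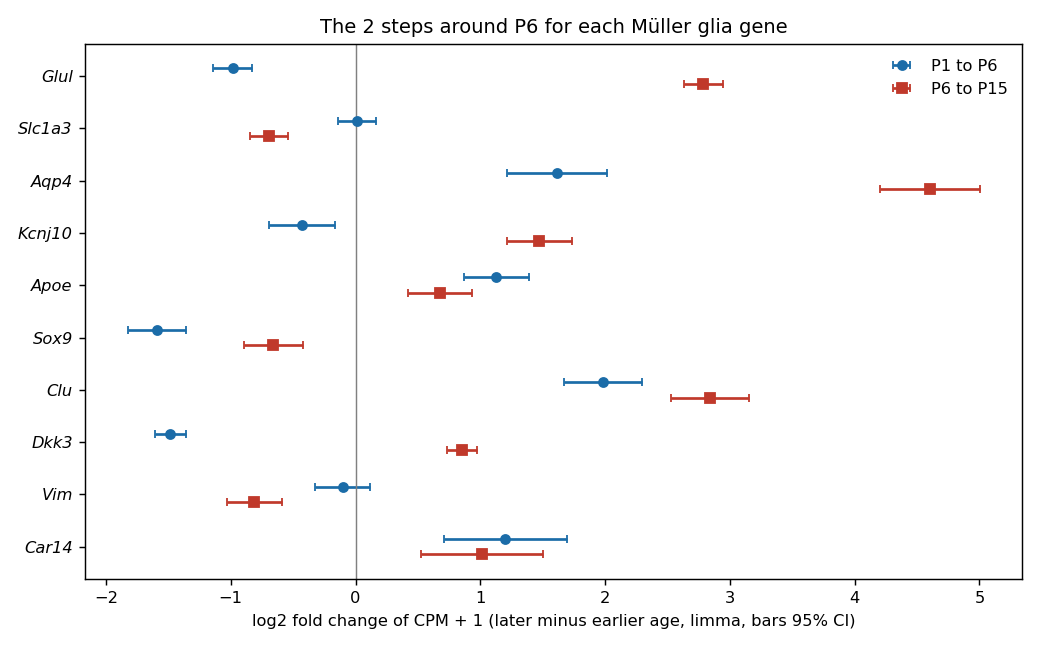
Log2 fold change of cpm + 1 (horizontal axis) for each Müller glia gene from P1 to P6 (circles) and from P6 to P15 (squares), by limma on all 27 libraries with 95% confidence intervals as bars. Glul, Kcnj10 and Dkk3 fell in the earlier step and rose in the later one, and for Aqp4 the later rise of 4.60 was larger than the earlier rise of 1.61.

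The change after P6 was set against that before it as the difference of both steps (P6 to P15 minus P1 to P6) in the same fit. The later step spans more days than the earlier one, so the difference compares the sizes of the steps and not rates per day. The difference was positive for 6 genes and negative for 2, against 8.96% and 9.70% of all features. It was largest for Glul, at 3.77 on the log2 scale (SE 0.14, adjusted p = 1.1e-18), followed by Aqp4 at 2.99 (SE 0.35, adjusted p = 7.5e-08), Dkk3 at 2.34 (SE 0.11, adjusted p = 1.1e-16) and Kcnj10 at 1.90 (SE 0.23, adjusted p = 1.4e-07). For Sox9 it was 0.93 (SE 0.20, adjusted p = 0.0010), as Sox9 fell at both steps and less at the later one. Slc1a3 and Vim had negative differences of -0.71 each (adjusted p = 0.00017 and 0.0073), having changed by 0.01 and -0.10 from P1 to P6 before they fell. Without P6 replicate 2 the difference of Vim was not called (adjusted p = 0.059). Clu passed at 0.86 (SE 0.27, adjusted p = 0.023), but not with a pseudocount of 0.1 (adjusted p = 0.51), by edgeR (0.53), or without P6 replicate 2 (0.20) or P6 replicate 3 (0.075). Apoe and Car14 did not pass, with differences of -0.45 (95% interval -0.91 to 0.01) and -0.19 (-1.06 to 0.68).

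After P15 few of the genes moved. From P15 to P28, 0 genes were higher and 1, Vim, was lower (log2 fold change -0.41, SE 0.10, adjusted p = 0.017), against 1.14% and 1.58% of all features. Vim was not called by edgeR (adjusted p = 0.063), under median-of-ratios scaling (0.070), or without P15 replicate 3 (0.060), P15 replicate 4 (0.053), P28 replicate 2 (0.053) or P28 replicate 4 (0.086). At an unadjusted p under 0.05, limma had 3 genes at this step: Glul, Dkk3 and Vim, and edgeR called 0. From P28 to P60 limma called 0 of the 10 genes, against 4.80% of all features higher and 8.11% lower. At an unadjusted p under 0.05 there was 1, Car14, with a log2 fold change of 0.55 (95% interval 0.13 to 0.96, adjusted p = 0.069). Car14 was called by edgeR (0.69, adjusted p = 0.032), under median-of-ratios scaling (0.62, 0.049), and without P60 replicate 1 (0.69, 0.0085), P60 replicate 2 (0.60, 0.034) or P15 replicate 4 (0.55, 0.038). The other 9 genes differed between P28 and P60 by -0.17 to 0.11 on the log2 scale. Under median-of-ratios scaling 51.6% of the features called at this step were higher, and by edgeR 60.8%, against 37.2% with cpm values. With only the compared ages in the fit, limma called 23 features in all at this step, against 4100 with all ages.

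A wider list of 32 other genes known in Müller glia, of which all were tested, was read in the same fit. In mature against embryonic retina 18 were higher, 13 were lower and 1, Rdh10, was not called, against 35.0% of all features higher and 40.4% lower. The counts are given by role. Of 9 genes of transport and the endfoot complex, 7 were higher, among them Slc38a3 (a glutamine transporter; log2 fold change 3.95, SE 0.09), Mlc1 (3.67, SE 0.13) and Kcnj2 (an inwardly rectifying potassium channel; 3.52, SE 0.14). The other 2 were lower: Dag1 (dystroglycan; -1.22, SE 0.06) and Slc4a4 (a sodium bicarbonate cotransporter; -0.33, SE 0.08). Of 5 genes of retinoid and lipid handling, 4 were higher: Abca8a (6.77, SE 0.09), Rlbp1 (the retinaldehyde binding protein CRALBP; 4.87, SE 0.10), Abca1 (a cholesterol exporter; 3.34, SE 0.10) and Rgr (3.18, SE 0.20). Each of these values had an adjusted p of at most 0.00046 by limma. The part of the RPE and of other cell types in the levels of the 32 genes was not tested.

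Of 12 transcription factors and Notch pathway genes that Müller glia share with progenitors, 10 were lower in mature retina and 2, Nfia (1.17, SE 0.06) and Nfix (3.52, SE 0.08), were higher. Over all features, 40.4% were lower and 35.0% higher. The largest falls were those of Hes5 (-3.44, SE 0.12), Notch1 (-3.25, SE 0.07) and Hes1 (-3.20, SE 0.11). Sox2, another gene of the SOX family, was at a mean of 183 cpm at E14, 129 at P1, 28.4 at P6 and 20.4 at P60. Of 6 genes of filaments and the cell surface, 5 were higher and 1, Nes (nestin; -4.61, SE 0.11), was lower. Nes and Vim, both intermediate filament genes, were lower together, while Gfap, the filament gene of astrocytes and reactive glia, was higher (2.44, SE 0.20) at means of 0.105 cpm at E14 and 8.15 at P60.

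**Figure D4:**
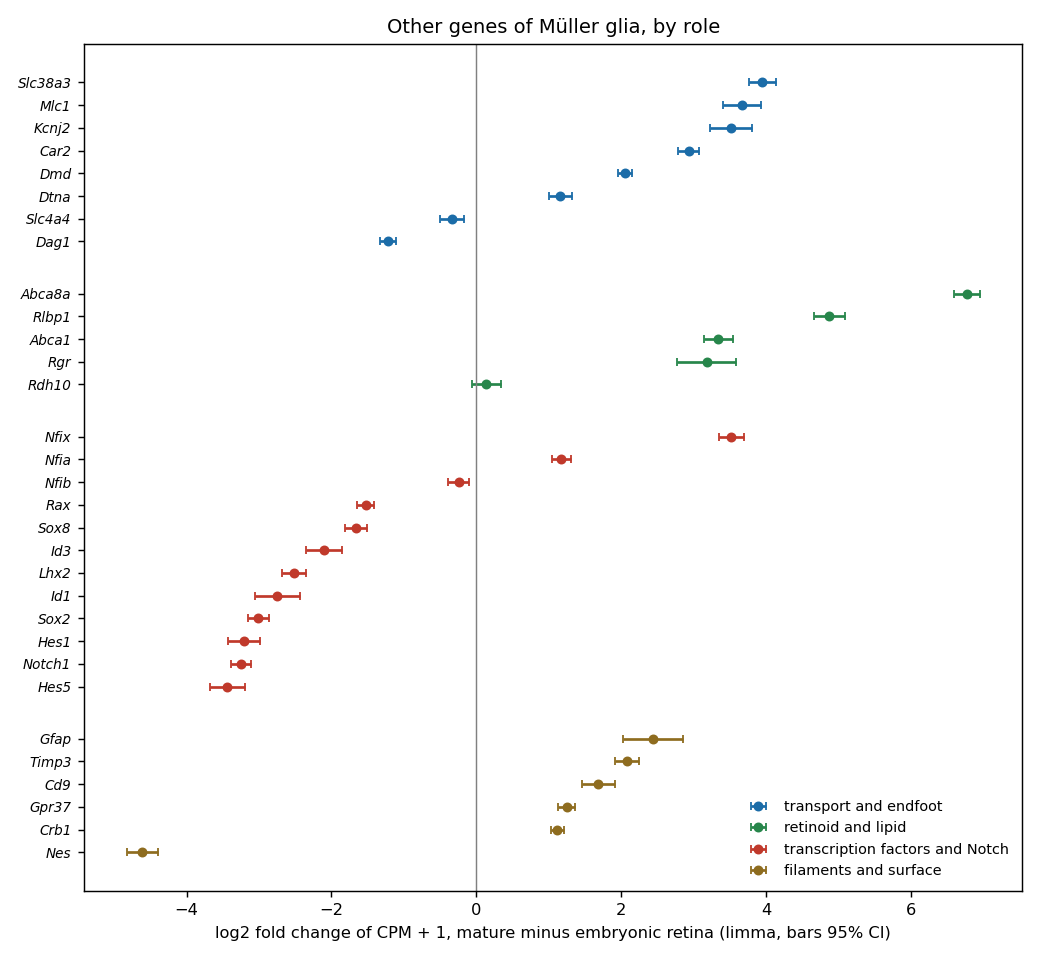
Log2 fold change of cpm + 1 between mature and embryonic retina (horizontal axis) for 31 of the 32 other genes of Müller glia, grouped by role in color, with 95% confidence intervals as bars (limma). Most genes of transport, retinoid and lipid handling lie to the right of 0, and 10 of the 12 transcription factors and Notch genes lie to the left.

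From P1 to P6, 11 of the 32 other genes were higher and 14 lower, against 18.0% and 20.4% of all features. From P6 to P15, 12 were higher and 16 lower, against 14.4% and 19.0%. The difference of the later and the earlier step was positive for 7 and negative for 11, against 8.96% and 9.70%. For Rlbp1 (-1.74, SE 0.29) the rise from P1 to P6 was larger than that from P6 to P15. Dmd (dystrophin; -2.19, SE 0.13) rose to P6 and then fell, with means of 383 cpm at P1, 1425 at P6 and 1165 at P15. Rlbp1 went from a mean of 20.6 cpm at P1 to 92.9 at P6 and 126 at P15. Abca1 had a peak at P6, with means of 22.9 cpm at P1, 146 at P6 and 47.2 at P15 (difference of the steps -4.26, SE 0.27). Slc4a4 fell to P6 and rose to P15, with means of 26.2 cpm at P1, 13.2 at P6 and 21.5 at P15 (1.60, SE 0.22). Unlike Glul and Dkk3, Slc4a4 then went down again, to means of 18.6 cpm at P28 and 14.4 at P60. Slc38a3 was at means of 10.1 cpm at E14, 49.7 at P1, 60.8 at P6, 191 at P15 and 339 at P60. Its rise from P6 to P15 was larger than that from P1 to P6 (difference of the steps 1.35, SE 0.25). The adjusted p of each of these 5 differences was at most 0.00013 by limma. From E14 to E17, 13 of the 32 were higher and 3 lower (7.56% and 3.02% of all features), and from E17 to P1, 14 and 1 (5.77% and 3.43%). From P15 to P28, 0 were higher and 3 lower (1.14% and 1.58%), and from P28 to P60, 4 and 3 (4.80% and 8.11%).

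For each of the 10 genes, the features with a Gene ID whose 7 age means were most like its own are named with Pearson's r over the ages, as a description of shape only. The levels given here for these features are means of log2(cpm + 1) turned back to cpm. For Aqp4 these were Enam (r = 0.9995) and Fgf1 (0.999), which went from a mean of 1.45 cpm at E14 to 42.2 at P28. For Clu they were Dnajc27 and Pcp2 (0.999 each), and for Apoe Fabp12 and Wdr31 (0.998 each). Those of Kcnj10 were Gatsl2 (0.998) and D930030D11Rik (0.993), and both had a level at P6 below that at P1. For Sox9 they were Hjurp (0.9997) and Siah1b (0.9995). Hjurp went from 262 cpm at E14 to 69.6 at P6 and 44.1 at P60. For Vim they were Mest (0.997) and Crcp (0.996). The patterns of Glul, Dkk3, Slc1a3 and Car14 had their closest neighbors at r of 0.993 or less. These were Rhobtb2 and BC048594 for Glul (0.990 each), Kifc1 (0.989) and Prdx6b (0.986) for Dkk3, Pak3 (0.990) and Tcf4 (0.987) for Slc1a3, and Dlg1 (0.993) and Gm30524 (0.991) for Car14. Pak3 was at means of 182 cpm at E14, 371 at P6 and 128 at P60. It rose and fell as Slc1a3 did but over a wider range, the plain means of Slc1a3 being 126, 196 and 104 cpm.

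The spread between libraries set how finely the ages could be told apart. Over the 10 genes, the coefficient of variation had a median of 4.29% at E14 and 5.48% at P28 but 13.3% at P60 and 15.3% at P1. At P60 the highest library exceeded the lowest by 1.15-fold for Dkk3 and by 2.77-fold for Car14. Replicates 1 and 2 of P60 were the lowest for Glul, Slc1a3, Vim and Car14, and the highest for Aqp4, Kcnj10 and Sox9. The methods give 2 pools and 4 individual mice at P60 without naming the libraries, and whether these 2 libraries were the pools was not tested.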

How the data were processed

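Per the labels, total RNA of whole retina went into libraries made with a SMARTer total RNA kit. The authors mapped the reads with STAR (GRCm38) and deposited CPM values (cpm), with a column for each library. The annotation and any use of strand in counting are not given in the sources used here. The CPM values were recovered as whole reads by the step between low values, and 100% came out whole within a tolerance of 0.02 reads.

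The deposited CPM values were transformed to log2(CPM + 1), a scale that understates the change of a low gene. Of the 38168 features, the 31760 that reached 1 CPM in 3 or more libraries entered limma 3.58.1 (R 4.3.3, trend over the mean level), with age as factor over the 27 libraries together. P-values measure the spread between these libraries, with 1 estimate for each feature over all 7 ages. The spread at P60 was wider than at P28 (median coefficient of variation of the 10 genes 13.3% against 5.48%). The shared estimate therefore need not hold for P60, and calls from P28 to P60 are to be read with that limit. As an alternative, edgeR 4.0.16 (quasi-likelihood, TMM) was run on the recovered reads. It called 24062 features between mature and embryonic retina, where limma called 23951. Other alternatives were a pseudocount of 0.1, all features, only features with a mean CPM of 10 or more, size factors by the median of ratios, replicate number as block, only the ages compared, the sum of entries that share a symbol, a minimum absolute log2 fold change of 1 (for the share of all features called), and each library left out. EdgeR without E14 replicate 1 was added after the data were seen. Fits were tested on simulated data. Python 3.11.15 was used for tables and sequence searches.

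The 10 genes and the lists were chosen with earlier results of these data known. Genes named in the text are the 10, genes of the fixed lists and, for each of the 10, the 2 tested features with a Gene ID whose age means had the highest r with its own. Teddm2 and Aph1a are named for their overlap with a gene of the list. Some genes of the lists are counted but not reported here by name. Positions and exon lengths came from the GRCm38 annotation.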

Additional observations from a re-analysis of the deposited data

Results flagged for a closer look

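In groups of 4 to 10 libraries, a value was singled out when its gap to the nearest library, divided by the range of the group, passed Dixon's 95% critical value. Gap and range were taken on the scale of log2(cpm + 1). Of 40 groups tested, 2 had such a value, where chance gives about 1 in 20. Glul in P15 replicate 4 was at 577.4 cpm, with the other 3 libraries of that age between 512.6 and 521.8 (gap over range 0.849, critical value 0.829). The same library was the highest of its age for 7 of the 10 genes: Glul, Apoe, Sox9, Clu, Dkk3, Vim and Car14. Slc1a3 in P60 replicate 3 was at 118.9 cpm, with the other 5 between 96.6 and 104.1 (0.640, critical value 0.625). The cause was not tested in either.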

How the results depend on the processing

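Over the 10 genes and 8 comparisons, 2790 of 2878 values under an alternative kept their direction and their side of the threshold, 31 lost a call, 19 gained one and 38 changed sign, all of these between values that were not called. All 10 genes were called between mature and embryonic retina under every alternative. The log2 fold change of Aqp4 there ran from 6.42 to 8.94 and that of Clu from 4.90 to 6.07, and the median of all features moved by 0.102 with edgeR. From E14 to E17 the number of the 10 genes called was 5, and 3 under median-of-ratios scaling, by edgeR and by edgeR without E14 replicate 1. From P15 to P28 it was 1, then 0 under those 3 settings, and 2 with a mean of at least 10 cpm or only the compared ages. From P28 to P60 it was 0, then 1 under the same 3 settings. With a library left out these counts ran from 3 to 6, 0 to 1 and 0 to 1. For the 32 other genes, the count from P15 to P28 was 3, then 1 under the same 3 settings and 8 with only the compared ages, and it ran from 1 (without P15 replicate 2 or 3, or P28 replicate 1, 3 or 4) to 4 with a library left out. From P28 to P60 it was 7, then 4 under the 3 settings and 0 with only the compared ages, and it ran from 2 (without P28 replicate 1) to 9 (without P60 replicate 1).

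The replicate number as a block gave 3 of the 32 other genes from P28 to P60, and 1029 features in all against 4100. Replicates 5 and 6 occur only at P60, so with the block these libraries do not bear on that step. Same-numbered libraries of different ages correlated at -0.13 to 0.17 in their deviations from the age means, with 3 of 69 pairs over 0.1. Of 27 libraries, 7 correlated best with their own number. Pairing by number was thus not seen in these deviations. Whether a number stands for a shared batch was not tested. With only the compared ages, the features called in all numbered 23 from P28 to P60, 7705 against 3359 from E14 to E17 (56.3% of them higher, against 71.5%), 5298 against 2924 from E17 to P1, and 1655 against 864 from P15 to P28. A minimum absolute log2 fold change of 1 left 31.0% of features between mature and embryonic retina in place of 75.4%. Values near 0 changed sign as follows. From P28 to P60, Clu was at 0.066 under median-of-ratios scaling, 0.064 by edgeR with all libraries and 0.063 by edgeR without E14 replicate 1, Vim at 0.020, 0.023 and 0.022, and Dkk3 at -0.014 with the block. From P15 to P28, Sox9 was at 0.011, 0.0079 and 0.0091 under the first 3, and from E17 to P1 it was at 0.0045 with the block. With a library left out, the ranges were -0.033 to 0.073 for Aqp4 and -0.23 to 0.21 for Car14 from P15 to P28, -0.55 to 0.10 for Car14 in the difference of steps, -0.071 to 0.041 for Clu, -0.036 to 0.020 for Dkk3 and -0.10 to 0.0062 for Vim from P28 to P60, -0.063 to 0.00088 for Dkk3 and -0.035 to 0.037 for Sox9 from E14 to E17, -0.045 to 0.041 for Slc1a3 from P1 to P6, and -0.11 to 0.040 from E17 to P1 and -0.057 to 0.038 from P15 to P28 for Sox9. The cause was not tested. At these depths Aqp4 and Clu had few reads up to P1, so that differences among E14, E17 and P1 were not detectable for Aqp4.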
